A study of Canis lupus familiaris with 10 samples.

Results

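The genes described here mark Langerhans cells and other dendritic cells, and they were followed in canine cutaneous histiocytoma (CCH) at an early and a late stage. A set of 10 names was given: FLT3, CD207, CD1A, CD1C, CD1E, CD209, CLEC9A, BATF3, ZBTB46 and CDH1. Of these, 6 had a row of that name among the 800 genes of the panel, namely FLT3, CD209, CDH1, CD207, CD1C and CD1E. CD1A, CLEC9A, BATF3 and ZBTB46 had no row under these names and were not analysed here. All 6 genes passed the limit on low values, a mean of at least 20 normalized counts over the 10 tumors, and entered a test of 761 genes.

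CCH is a benign skin tumor of dogs that is derived from Langerhans cells and often regresses while lymphocytes enter it. RNA of formalin-fixed, paraffin-embedded (FFPE) tumors was read with the nCounter Canine IO Panel, a set of probes for immune and tumor genes whose colored barcodes are counted singly, with no amplification. The comparison asks which genes differ in expression between the stages. The values are normalized counts, scaled by the authors to positive controls and housekeeping genes.

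Early CCH held 5 tumors of group 1 of the Cockerell and Slauson scheme, from French Bulldogs (early 1 and 5), a Goldendoodle (early 2), a Terrier (early 3) and a Boxer (early 4). Of these dogs, 3 were male, of which 2 were neutered, 1 was female, and the sex and age of the Terrier were not given. The 4 known ages ran from 0.5 to 5 years. Late CCH held 5 tumors of group 3, labeled as lymphocyte enriched, from a Rottweiler, a Beagle, a Pug, a Bullterrier and a Jack Russell Terrier (late 1 to 5). Of these, 4 were male, of which 1 was neutered, and 1 was female, and their ages ran from 1.5 to 9 years. No treatment or genetic change was part of the design. Each dog gave a single tumor at a single time, so the stages are different dogs and not a course within a dog, and whole tumor sections hold tumor cells together with infiltrating and stromal cells.

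Langerhans cells are the dendritic cells of the epidermis. They capture antigen with lectins such as langerin, the product of CD207, they hold on to keratinocytes through E-cadherin, the product of CDH1, and they display lipid antigens on CD1 molecules. FLT3 is the receptor tyrosine kinase through which FLT3 ligand (FLT3LG) sustains dendritic cells and their precursors, while CD209 (DC-SIGN) is a C-type lectin of dendritic cells in the dermis and of some macrophages.

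Recovered barcode counts summed to between 484696 and 823763 in the early and between 945399 and 1253083 in the late tumors, so that low genes were counted less precisely in early CCH. Background was set for each tumor at 2 SD over the mean of its 8 negative probes and lay between 21.8 and 38.2 normalized counts in early and between 19.2 and 26.9 in late CCH. The DV200 of the RNA, the share of fragments over 200 bases, was 64.5 to 71.2% in early and 71.2 to 75.8% in late CCH. The 2 brightest spiked-in controls stood in a ratio of 2.09 to 2.17 in early and 2.72 to 2.84 in late CCH, although they are added in fixed amounts. Per the study's records each stage was run on a cartridge of its own and extracted in batches of its own, and the late blocks had been stored longer, so cartridge, extraction, storage and stage cannot be told apart.

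Of the 6 genes, 1 was called as different between the stages, against 11.2% of all 761 genes tested. Calls required a p of at most 0.05 in limma after the Benjamini-Yekutieli (BY) adjustment, together with a change of at least 2-fold, and log2 fold changes (log2FC) are early minus late. The called gene was FLT3, which was higher in early CCH, a direction called for 1.97% of all genes, while 9.2% were called as higher in late CCH. The other 5 genes went in both directions: CD209 and CD1C had negative and CDH1, CD207 and CD1E positive log2FC values, and none of these passed the test. With the Benjamini-Hochberg (BH) adjustment at 0.05 and no fold limit, FLT3 was again the only 1 of the 6 to pass, whereas 8.41% of all genes passed as higher in early CCH and 27.3% as higher in late CCH. Under some of the other scalings described below, CD207 and CD1C, both near background, also passed the BH threshold. The median log2FC of the 6 genes was 0.37, and that of all tested genes was -0.18.

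**Figure D1:**
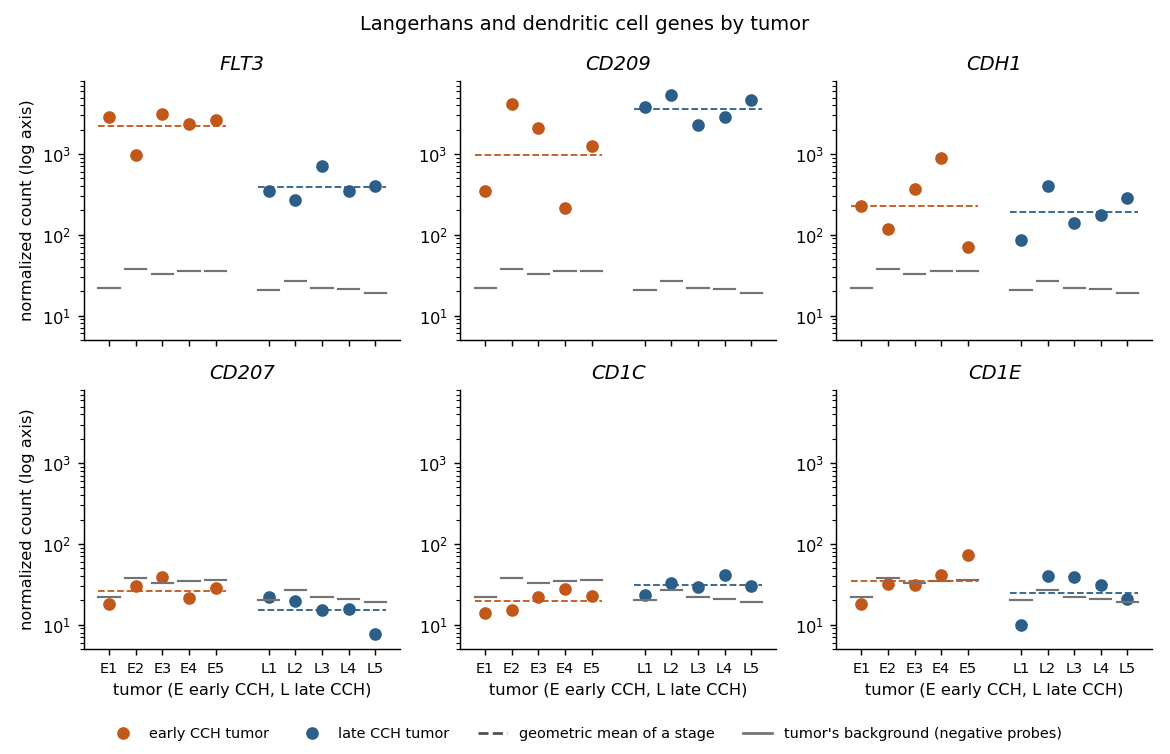
Normalized counts of the 6 genes on a log axis, with a point for each tumor (E1 to E5 early, L1 to L5 late CCH), a dashed line at the geometric mean of each stage and a gray line at the background of each tumor. FLT3 separated the stages, with 962 in the lowest early and 708 in the highest late tumor, CD209 and CDH1 overlapped, and CD207, CD1C and CD1E lay around the background.

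FLT3 was high in early CCH and low in late CCH, with every early tumor above every late tumor. In early CCH 1 to 5 the normalized counts of FLT3 were 2867, 962, 3117, 2349 and 2600. The counts in late CCH 1 to 5 were 349, 271, 708, 348 and 401. Early 2 was the lowest of the early tumors and late 3 the highest of the late ones, and the remaining 4 tumors of each stage lay close together. Non-overlapping stages were found for 24.6% of all tested genes, and for 5.39% with all early tumors on top. The early tumors averaged 2379 ± 843 (SD, n = 5) and the late tumors 415 ± 170 (SD, n = 5), a log2FC of 2.49 (SE 0.35, 95% confidence interval 1.70 to 3.27, limma, BY adjusted p = 0.0102). This was the 3rd highest log2FC of the 761 genes. An exact two-sided permutation test of the log2 values gave p = 0.00794, the smallest that 5 tumors against 5 can give. The level was 10.1 to 132 times the background of the tumor in all 10 tumors.

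The fit was repeated under 28 alternative settings of filter, scaling, variance model, covariates and tumors. The FLT3 difference kept its direction in all of them and its call in 23, including each of the 10 fits that left out a tumor and each of the 4 other scalings. The 5 losses included the limma fits with DV200 as a covariate (log2FC 2.78, BY adjusted p = 0.243) and in male dogs alone (log2FC 2.11, BY adjusted p = 0.167). The male fit held 3 early and 4 late tumors, and the DV200 ranges of the stages met at 71.2%. For late 5 the DV200 of the sample label (71.2%), which was used, differs from that in the study's RNA quality records, and late 4 had the same label value. Without late 5 the fit with DV200 gave a log2FC of 2.87 (limma, BY adjusted p = 0.505).

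Transcripts of T cells were higher where FLT3 was low. All 11 T cell markers passed the BH threshold as higher in late CCH and 3 of them were called, beside 27.3% and 9.2% of all genes in that direction, with a median log2FC of -2.88. The called markers were CD6 (-3.23), CD5 (-2.94) and CD247 (-2.29), the last of which was above background in only 2 of the 5 early tumors. These markers, which include the CD3 chains and the T cell receptor constants, summed to between 637 and 11580 normalized counts in early and between 17602 and 28348 in late CCH, and all 11 were above background in every late tumor, while up to 4 of 11 were not in an early tumor. The early tumors richest in these transcripts, early 3 (11580) and early 4 (9126), had 3117 and 2349 normalized counts of FLT3, and early 1, with the lowest sum (637), had 2867. Early 2, with the lowest FLT3 of its stage, had a T cell sum of 3209, the highest early sum of 16 macrophage markers (13397) and the highest early sum of 6 endothelial and stromal markers (37408). The last sum rests mostly on the collagen genes COL3A1 and COL1A1, with early means of 10432 and 6838. THY1, the called gene of that list, was higher in late CCH (log2FC -1.58) and averaged 724 in early CCH. In whole tumor RNA, fewer cells of a type and less RNA per cell cannot be told apart, and the part of tumor composition in the FLT3 difference was not tested.

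The ligand of the receptor went the other way. FLT3LG encodes the growth factor that binds FLT3, and its normalized counts were 59.2, 76.3, 75.3, 72.5 and 47.4 in early CCH 1 to 5. Late CCH 1 to 5 gave 174, 148, 126, 158 and 131. Every late tumor lay above every early tumor. Early CCH averaged 66.1 ± 12.5 (SD, n = 5) against 147 ± 19.5 (SD, n = 5) for late CCH, and the log2FC of -1.16 (SE 0.19, limma, BY adjusted p = 0.0168) was called. The call was narrow: under the 4 other scalings the log2FC was -0.97 to -0.62 and thus under the 2-fold limit, and without late 1, 2 or 4 the BY adjusted p was 0.0582, 0.0526 or 0.0581 (limma). The ratio of FLT3 to FLT3LG in the same tumor, which does not depend on the scaling, was 12.6 to 54.9 in early and 1.83 to 5.61 in late CCH. Since each gene separated the stages, in opposite directions, this ratio had to separate them too and is no further result. Ratios between probes have no absolute meaning, since probes differ in efficiency, and were compared only across tumors.

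FLT3 belongs to the class III receptor tyrosine kinases. The 8 further receptors and ligands of this family that were tested included 2 called genes, FLT3LG and CSF1, both higher in late CCH, a direction called for 9.2% of all genes, and 6 that passed neither the BY nor the BH threshold. CSF1, the growth factor of macrophages, averaged 639 ± 383 (SD, n = 5) in the early tumors and 3046 ± 818 (SD, n = 5) in the late ones (log2FC -2.41, limma, BY adjusted p = 0.0152). Its receptor CSF1R had a log2FC of -0.42 (SE 0.25, limma, BY adjusted p = 1), and the stem cell factor receptor KIT one of -0.10 (SE 0.79, limma, BY adjusted p = 1), a value that turned positive under each of the 4 other scalings. PDGFC was nearest to 0 in this family, at 0.04. The median log2FC of the 8 genes was -0.54 beside -0.18 for all tested genes, and -0.35 to -0.06 under the 4 other scalings, in which the median of all genes was 0.01 to 0.21. Whether the receptors of the family differed from FLT3 in their change was not tested.

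CD209 had the opposite pattern to FLT3 and did not pass the test. In early CCH 1 to 5 its normalized counts were 346, 4122, 2126, 217 and 1271. The late tumors 1 to 5 had 3764, 5421, 2308, 2845 and 4612. All late tumors were high, while the early tumors ranged from low (early 1 and 4) to a level within the late range (early 2), so the stages overlapped. Means were 1616 ± 1599 (SD, n = 5) for the early and 3790 ± 1268 (SD, n = 5) for the late stage. The log2FC was -1.90 (SE 0.73, 95% confidence interval -3.53 to -0.28, limma, BY adjusted p = 0.474, BH adjusted p = 0.0658), and the exact two-sided permutation test gave p = 0.0476, unadjusted over the 6 genes.

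The spread of CD209 lay almost wholly in early CCH. The highest early tumor was 19.0-fold above the lowest, and the highest late tumor 2.35-fold. The SD of the log2 values within stages, 1.31, was at or above that of 94.5% of tested genes, whose median was 0.46. The log2FC stayed negative in all alternative settings, between -2.43 and -1.37 when a tumor was left out, and CD209 was called in none of the 28 settings.

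The balance of FLT3 and CD209 set 4 of the 5 early tumors apart from all late tumors. The ratio of FLT3 to CD209 was 8.29, 0.233, 1.47, 10.8 and 2.04 in early CCH 1 to 5. The late tumors 1 to 5 had ratios of 0.0926, 0.050, 0.307, 0.122 and 0.0869. Only early 2 overlapped with the late tumors, lying under late 3, and these were the early tumor with the lowest and the late tumor with the highest FLT3. As a log2 ratio it averaged 1.19 ± 2.22 (SD, n = 5) in the early and -3.20 ± 0.96 (SD, n = 5) in the late tumors, a difference of 4.39 that was given no test, since its parts were tested above. Within stages the log2 values of the genes also ran in opposite directions, with Pearson's r of -0.53 over the 5 early and -0.77 over the 5 late tumors, described without a test because each stage holds only 5 points that share the housekeeping scaling.

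**Figure D2:**
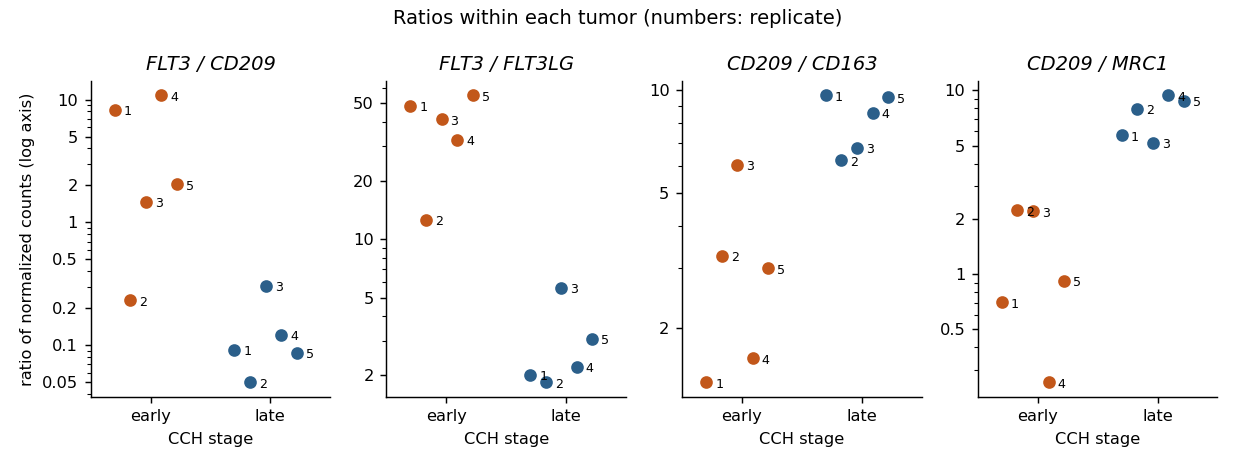
Ratios of normalized counts within each tumor on log axes, with a point for each tumor, its replicate number beside it, and early and late CCH side by side. FLT3/CD209 overlapped at early 2 (0.233) and late 3 (0.307), while FLT3/FLT3LG, CD209/CD163 and CD209/MRC1 did not overlap between the stages. For FLT3/FLT3LG this follows from the separation of each gene alone.

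CD209 was set beside CD163 and MRC1, since macrophages can also make it. These are 2 of 16 macrophage markers, and other markers of that list were higher in late CCH. CD163, a scavenger receptor of macrophages, had a log2FC of -0.31 (SE 0.53, limma, BY adjusted p = 1), whose sign turned under 2 of the 4 other scalings. MRC1, the macrophage mannose receptor, had a log2FC of 1.00 (SE 0.36, limma, BY adjusted p = 0.367, BH adjusted p = 0.0508), in the opposite direction to CD209. Under the 4 other scalings MRC1 ran from 1.19 to 1.50, passed the BH threshold in all 4 and was called in 2. The ratio of CD209 to CD163 was 1.39 to 6.03 in early and 6.24 to 9.67 in late CCH. The ratio of CD209 to MRC1 was 0.257 to 2.22 in early and 5.20 to 9.40 in late CCH. Neither ratio overlapped between the stages, and relative to these probes CD209 was higher in every late tumor. Ratios to the remaining markers were not computed. Relative to ITGAX, the integrin CD11c of dendritic cells and macrophages, CD209 overlapped between the stages, with ratios of 0.168 to 11.6 in early and 3.42 to 10.2 in late CCH and early 2 above every late tumor.

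CD209 was close to complement C1q and CD163 in its pattern over the tumors. By Pearson's r of log2 values over the 10 tumors, the genes most like CD209 were C1QA (0.95), LOC478984 (0.94), C1QB (0.93), TLR8 (0.92) and HSD11B1 (0.91). With the mean of each stage taken off, they were TNFSF13B (0.96), C1QA (0.91), LOC478984 (0.91), CD163 (0.89) and C1QB (0.89). C1QA and C1QB encode chains of C1q, which macrophages and dendritic cells make. In the early tumors low in CD209, early 1 and 4, C1QA stood at 158 and 128 normalized counts, against 542 to 1014 in the other early and 866 to 1415 in the late tumors. Within late CCH the orders differed, since late 2, with the most CD209, had the lowest C1QA (866), and late 3, with the least CD209, had 1024. The 16 macrophage markers together summed to between 4762 and 13397 in early and between 10149 and 16777 in late CCH, with early 4 and early 1 (5259) lowest. The list includes C1QA, C1QB and CD163, named above as most like CD209, so this order is partly built in. C1QB alone averaged 1250 in early and 3959 in late CCH. Of the 16 markers 2 were called, CD68 and MAF, both higher in late CCH (log2FC -1.29 and -1.65), beside 9.2% of all genes in that direction, and the median log2FC was -0.33. CD68 lost its call under each of the 4 other scalings, at -1.10 to -0.90, and MAF kept it. By the BH threshold 5 markers were higher in late and 1 in early CCH, beside 27.3% and 8.41% of all genes, and under the 4 other scalings 3 to 5 were higher in late and 2 in early CCH, with a median log2FC of -0.14 to 0.11. The late markers were CD68, MAF, C1QB (-2.14), the scavenger receptor MSR1 (-1.67) and the phagocytic receptor MERTK (-1.36), and the early marker was the lectin CLEC7A (0.89). MSR1, MERTK and CLEC7A were named after their values were seen. The part of macrophage content in the CD209 values was not tested.

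**Figure D3:**
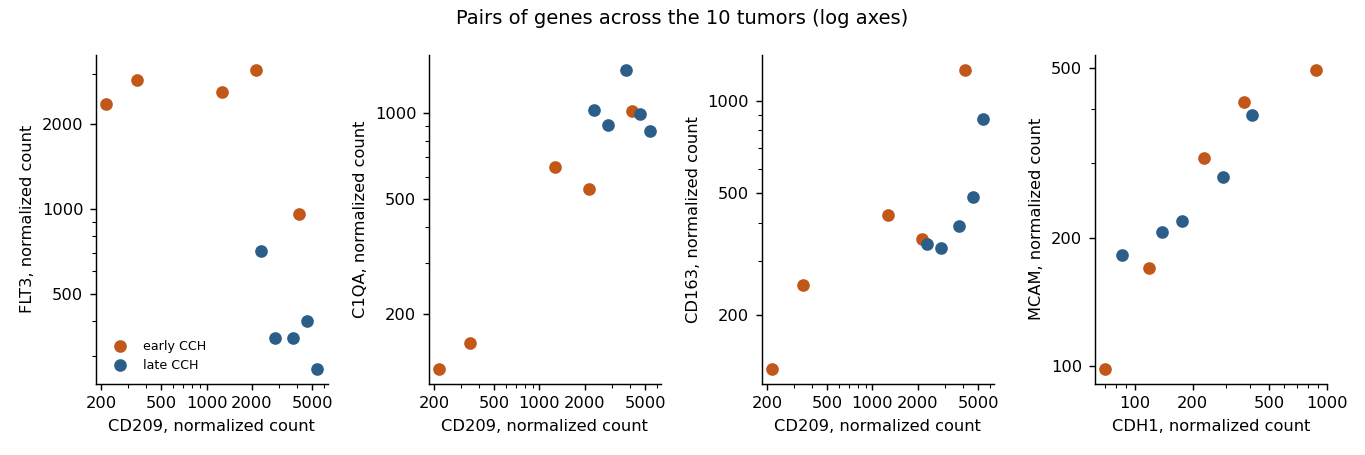
Normalized counts of gene pairs on log axes, with a point for each early and late tumor. CD209 ran against FLT3 and along C1QA and CD163 (r = 0.91 and 0.89 with stage means taken off), and CDH1 ran along MCAM (r = 0.95) with the stages intermixed.

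The genes most like FLT3 over the 10 tumors were IL13RA1 (r = 0.95), PIK3R1 (0.95), NF1 (0.94), RPS6 (0.93) and MYC (0.93), all of which also had a higher mean in early CCH. IL13RA1, a receptor chain for interleukin 13, ran from 1520 to 2289 normalized counts in early and from 749 to 947 in late CCH. With stage means taken off, none of these 5 was among the nearest 5, which were IRF5 (0.82), PARP1 (0.81), DLA-79 (0.80), CD74 (0.77) and BTLA (0.77). All such values rest on 10 tumors with a common scaling and were chosen as the highest of many genes.

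CDH1, which encodes the adhesion molecule E-cadherin, varied widely within both stages, and no difference between them passed the test. Its normalized counts were 230, 119, 371, 883 and 70.1 in early CCH 1 to 5. Late CCH 1 to 5 had 85.6, 407, 138, 176 and 288. Early 4 was the highest and early 5 the lowest of all 10 tumors, so the early range enclosed the late one. The early mean was 334 ± 328 (SD, n = 5) and the late mean 219 ± 129 (SD, n = 5), with a log2FC of 0.27 (SE 0.67, 95% confidence interval -1.21 to 1.75, limma, BY adjusted p = 1). The interval leaves room for changes of more than 2-fold in either direction. The sign turned when early 4 (-0.21) or late 1 (-0.014) was left out, and with DV200 as a covariate the log2FC was 1.47.

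E-cadherin is made by keratinocytes as well as by Langerhans cells. Over the 10 tumors the gene most like CDH1 was MCAM, an adhesion molecule of vessels and other cells (r = 0.95), and the nearest genes also included CLDN1 (0.81), a tight junction protein of epithelia, DDR1 (0.79) and IL18RAP (0.78). With stage means taken off, MCAM stayed first (0.95), followed by IL18RAP (0.89), CCL19 (0.84), ITGA1 (0.84) and CTLA4 (0.83). KRT14, the keratin of basal keratinocytes, correlated with CDH1 at 0.67 over the 10 tumors and at 0.67 with stage means taken off. EPCAM, an epithelial adhesion molecule, was lower at 0.44 and 0.43, and KIT, which is not of the epithelial list, was higher at 0.73 and 0.74. KRT14 ran from 150 to 5239 normalized counts in early and from 201 to 3382 in late CCH, and EPCAM from 105 to 466 and from 72.4 to 306. The 8 keratinocyte and epithelial genes ran from -0.73 (KRT7) to 0.89 (EPCAM), with a median log2FC of 0.37, beside -0.18 for all tested genes. None of the 8 passed the BY or the BH threshold, while 35.7% of all genes passed BH. Under the 4 other scalings the median was 0.56 to 0.80, beside 0.01 to 0.21 for all genes. There 0 to 2 of the 8 genes passed the BH threshold as higher in early CCH, while 310 to 345 of 761 genes passed in either direction. The part of epidermis in the CDH1 values was not tested.

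CD207, the defining marker of Langerhans cells, was at or near background in both stages. In early CCH 1 to 5 its normalized counts were 18.0, 30.5, 38.6, 21.4 and 28.4. The late values, from 1 to 5, were 22.3, 19.9, 15.1, 15.8 and 7.56. Early 3 and late 1 alone lay above the background of their own tumor, and the other 8 tumors did not. How well the probe detects canine CD207 was not tested. The log2FC of 0.76 (SE 0.30, limma, BY adjusted p = 0.530) was not called. The exact two-sided permutation test gave p = 0.0397 on the log2 normalized counts and p = 0.556 on recovered barcode counts, which were 16.8 on average in early and 14.8 in late CCH, and each count was worth 1.06 to 1.89 normalized counts in an early but 0.929 to 1.24 in a late tumor. With all values under 38.2, the highest background of any tumor, raised to that level, the log2FC was 0.0027. Only early 3 lay above that floor, so this setting could not show whether the stages differ.

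The CD1 genes encode molecules that present lipid antigens, and several of them are typical of Langerhans cells and dermal dendritic cells. CD1C was measured at 13.8, 15.3, 22.03, 28.0 and 22.7 normalized counts in early CCH 1 to 5. The probe gave 23.6, 33.2, 29.1, 41.8 and 30.2 in late CCH 1 to 5. No early tumor and all 5 late tumors lay above their own background, although the values of early 4 and late 1 overlapped. The log2FC was -0.63 (SE 0.23, limma, BY adjusted p = 0.418, BH adjusted p = 0.0579) and shrank to -0.025 with the common background floor. Only late 4 lay above that floor, so this setting could not show whether the stages differ. The exact two-sided permutation test, unadjusted over the 6 genes, gave p = 0.0159 on the log2 normalized counts and p = 0.00794, the smallest possible, on recovered counts, which also carry the greater depth of the late tumors. Recovered counts were 9 to 17 in early and 19 to 45 in late CCH, while the highest negative probe reached 16 to 21 and 17 to 24.

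CD1E stood at 18.0, 32.2, 31.2, 41.2 and 72.0 normalized counts in early CCH 1 to 5. Late CCH 1 to 5 followed with 9.92, 39.8, 38.9, 30.7 and 20.5. It passed the background in 2 early and 4 late tumors, early 5 was the highest and late 1 the lowest, and the stages overlapped (log2FC 0.47, SE 0.44, limma, BY adjusted p = 1). At most the level was 2.04 times the background, in early 5. For CD207, a low level could not be told from background in 8 of the 10 tumors.

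For these probes the genes most alike over the 10 tumors were NFATC4 for CD207 (r = 0.84), DLA-DRA for CD1C (0.91) and C8A for CD1E (0.93). The same genes came first with stage means taken off, at 0.93, 0.86 and 0.93. Since CD207, CD1C and CD1E lay near background, these values describe small counts.

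Other CD1 genes of the panel were read as well. CD1A6, for which RefSeq (assembly UU_Cfam_GSD_1.0) lists CD1A as a synonym, was measured at 28.6, 25.4, 147, 534 and 140 normalized counts in early CCH 1 to 5. The late tumors 1 to 5 gave 83.1, 52.0, 61.5, 21.4 and 33.5. Early 3, 4 and 5 exceeded every late tumor while early 1 and 2 did not, and the log2FC of 1.07 (SE 0.78, limma, BY adjusted p = 1) was not called. In that annotation the span of CD1A6 lies inside that of CD1A8, so which of these genes the probe reads is uncertain. CD1D, which presents lipids to natural killer T cells, had a log2FC of 0.05 (SE 0.41, limma, BY adjusted p = 1), and CD1B was above background in 0 early and 0 late tumors and was not tested.

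**Figure D4:**
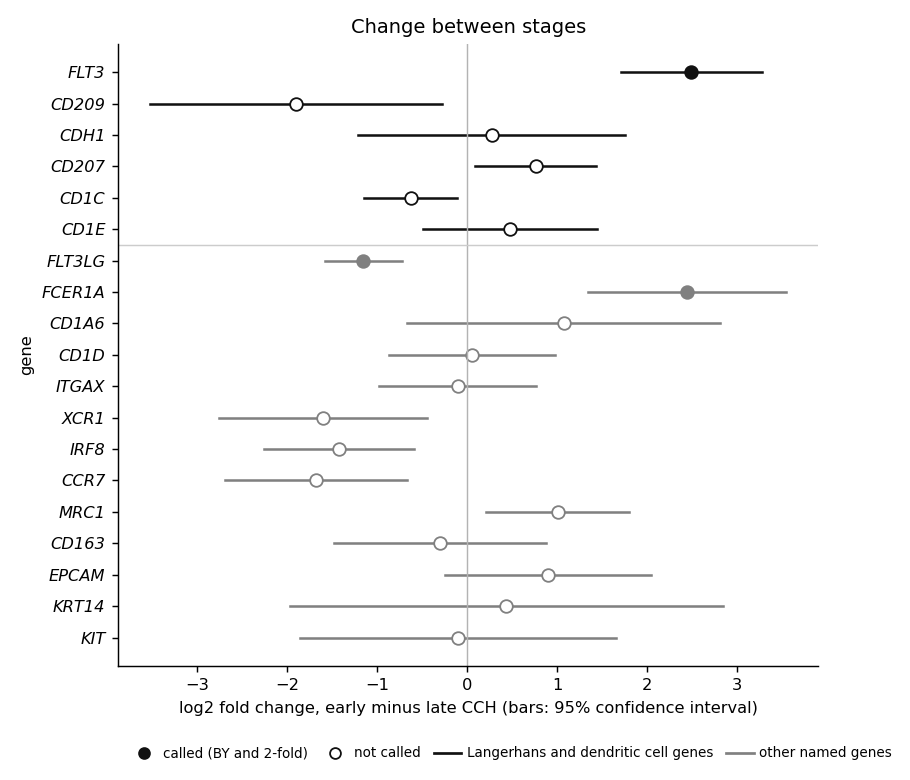
The log2FC (early minus late) with its 95% confidence interval for the 6 genes (black) and for other named genes (gray); filled points were called. FLT3 (2.49) and FCER1A (2.44) were called as higher in early and FLT3LG (-1.16) as higher in late CCH, and the intervals of CDH1, CD1E, CD1A6, CD1D and ITGAX included 0.

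Among 11 further dendritic cell surface molecules, 1 was called, as higher in early CCH, beside 1.97% of all genes in that direction and 11.2% in either. This was FCER1A, the alpha chain of the high-affinity IgE receptor, found on Langerhans cells and on mast cells. Its normalized counts were 98.4, 141, 272, 557 and 635 in early CCH 1 to 5. Counts of 65.7, 44.2, 37.8, 45.5 and 51.9 were found in late CCH 1 to 5. The stages did not overlap, and the log2FC was 2.44 (SE 0.50, limma, BY adjusted p = 0.0353). The call held in only 2 of the 10 fits that left out a tumor, without early 1 or early 2, with a log2FC of 2.13 to 2.80 and a BY adjusted p of at most 0.102 over all 10. Of the 3 mast cell genes tested, MS4A2 and CPA3 were also higher in early CCH by the BH threshold (log2FC 0.97 and 1.38), beside 8.41% of all genes, and CMA1 was not (-0.41). The part of mast cells in the FCER1A values was not tested.

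By the BH threshold without a fold limit, which 35.7% of all genes passed, 3 of the 11 surface molecules were higher in early and 2 in late CCH. The early genes were FCER1A, the chemokine receptor CCR6, which draws Langerhans cells toward epidermis (log2FC 1.74, BH adjusted p = 0.0153, limma), and the fractalkine receptor CX3CR1 (1.49, BH adjusted p = 0.0275, limma). CX3CR1 was above background in only 2 of the 5 late tumors, so its value is set against counts mostly at background. The late genes were CD83, a marker of mature dendritic cells (-1.30, BH adjusted p = 0.0109, limma), and XCR1, a receptor of cross-presenting dendritic cells (-1.60, BH adjusted p = 0.0359, limma). XCR1 passed the BH threshold in 2 of the 4 other scalings, under which 3 of the list were higher in early and 1 to 2 in late CCH. ITGAX, the integrin CD11c that most dendritic cells carry, averaged 709 ± 437 (SD, n = 5) and 659 ± 114 (SD, n = 5) in the early and late tumors, with a log2FC of -0.11 (SE 0.39, limma, BY adjusted p = 1) that turned positive under each of the 4 other scalings. The ratio of FLT3 to ITGAX was 1.82 to 9.54 in early and 0.45 to 1.05 in late CCH, without overlap. CCR6, CX3CR1 and CD83 were named after their values were seen.

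Of 10 transcription factors of dendritic cells, 1 was called, as higher in late CCH, beside 9.2% of all genes. This was RUNX1 (log2FC -1.23, limma, BY adjusted p = 0.0353), which was called in 12 of the 28 alternative settings. By the BH threshold 6 of the 10 passed, all as higher in late CCH, beside 27.3% of all genes, and the median log2FC of the list was -0.86. Under the 4 other scalings 4 to 5 passed, with a median of -0.67 to -0.33. IRF8, which directs the development of cross-presenting dendritic cells, averaged 577 ± 196 (SD, n = 5) in early tumors and 1630 ± 735 (SD, n = 5) in late tumors (log2FC -1.43, limma, BY adjusted p = 0.108, BH adjusted p = 0.0150). PRDM1, the lowest of the list, had a log2FC of -1.88 (limma, BY adjusted p = 0.0513) and CIITA, the activator of MHC class II genes, was the highest at 0.26. Many of these factors are also used by lymphocytes.

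Of 16 tested genes of dendritic cell maturation and migration, 3 were called, all as higher in late CCH, a direction called for 9.2% of all genes: PDCD1LG2, a ligand of PD-1 (log2FC -1.97), the adhesion molecule ICAM1 (-1.25) and the cytokine subunit EBI3 (-1.86). EBI3 was above background in only 2 of the 5 early tumors, so its log2FC is set against values mostly at background. The lowest of the list was the chemokine CCL19 (-2.21), which was not called. By the BH threshold 7 of the 16 were higher in late and 1 in early CCH, beside 27.3% and 8.41% of all genes. The median log2FC of the 16 genes was -0.50, and -0.42 to -0.12 under the 4 other scalings, in which 4 to 7 genes passed as higher in late and 1 to 2 as higher in early CCH. The early gene was the costimulatory ligand CD86 (0.97, limma, BY adjusted p = 0.0161), which missed the 2-fold limit and was called under each of the 4 other scalings. CCR7, the receptor that guides dendritic cells and T cells to lymph nodes, averaged 109 ± 59.1 (SD, n = 5) in early tumors and 338 ± 173 (SD, n = 5) in late tumors (log2FC -1.68, limma, BY adjusted p = 0.122, BH adjusted p = 0.0170), and passed the BH threshold in 3 of the 4 other scalings. Within stages FLT3 and CCR7 correlated at 0.07 over the 5 early and 0.64 over the 5 late tumors, described without a test. RUNX1, PDCD1LG2, ICAM1 and EBI3 lost their call under at least 3 of the 4 other scalings, in which the median log2FC of all genes moved from -0.18 to between 0.01 and 0.21. When a tumor was left out, ICAM1 stayed called in all 10 fits, EBI3 in 3, and RUNX1 and PDCD1LG2 in 2.

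**Figure D5:**
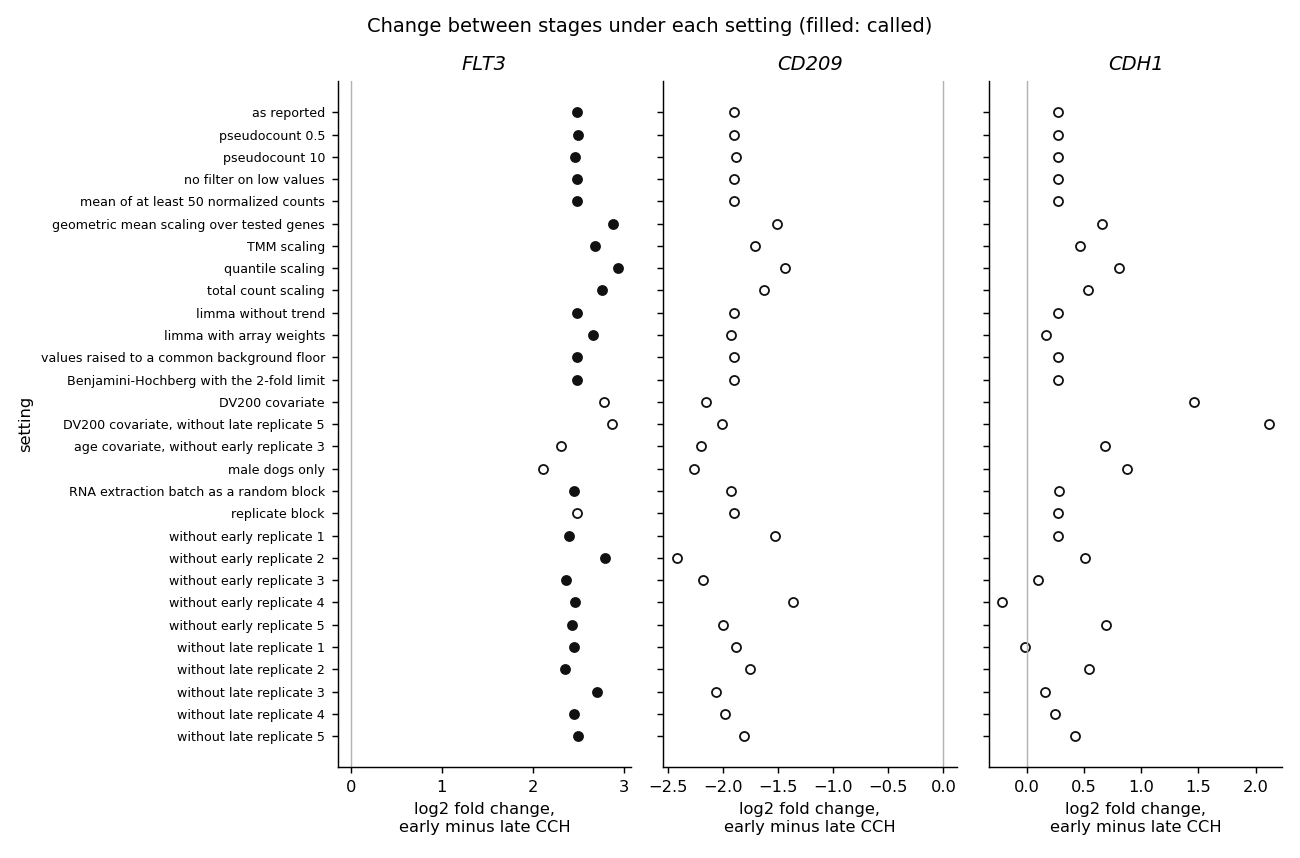
The log2FC (early minus late) of FLT3, CD209 and CDH1 in each setting, with filled points where the gene was called. FLT3 ran from 2.11 to 2.93 and lost its call in 5 settings, CD209 ran from -2.43 to -1.37 and was never called, and CDH1 ran from -0.21 to 2.12 on both sides of 0.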

How the data were processed

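The authors hybridized total RNA of 10 FFPE tumors (5 early, 5 late CCH) to the nCounter Canine IO Panel and normalized the barcode counts in nSolver, first to positive controls and then to housekeeping genes. The deposited values are this normalized signal on a linear scale for 800 genes, together with 14 unscaled control probes, and are called normalized counts. No background subtraction was stated. Per the study's methods the probes were designed on the CamFam3.1 dog genome. The deposited table holds no coordinates, and none are printed. Of the 800 symbols, 773 and all 6 members matched RefSeq.

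In every tumor at least 99.4% of the gene values could be divided evenly, within 0.0051, by the worth of a single barcode. This division gave recovered counts, which served for depth (484696 to 1253083 per tumor), for background and for a check of CD207 and CD1C, whose values lay near it. Intervals cover the spread between tumors, each from another dog.

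Early and late CCH were compared in limma 3.58.1 (R 4.3.3; lmFit, eBayes with trend) on log2(normalized count + 1), a scale that understates changes of low genes. The 761 genes with a mean of at least 20 were tested in a single fit without covariates, with late CCH as baseline. The baseline, the BY adjustment and the 2-fold limit are those of the study, whose count model was not applied to normalized values. The study's own nCounter test of these stages, run in nSolver, called no gene under the BY adjustment. The calls given here therefore depend on the test used and do not reproduce that result. Single genes were also compared by exact two-sided permutation. In simulated data the fit recovered 79.5% of genes changed by 2 on the log2 scale, and 29.5% of those changed by 1. It called 1 unchanged gene in each of these runs and 0 in a run with no changed gene.

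Genes set to be named were the members found in the table, the called genes, extremes and genes nearest 0 of each list, FLT3LG, CD1A6, CD1D, XCR1, FCER1A, ITGAX, CCR7, IRF8, MRC1, CD163, EPCAM, KRT14 and KIT, and for each member the 5 genes with the highest Pearson's r, with and without stage means taken off, of which 1 result is not reported here. Genes nearest 0 were named for some lists only, and CSF1R was named outside this rule, as the receptor of CSF1. Members and lists were chosen with earlier results of these data known. RNA extraction batch and cartridge came from the study's records. Alternatives covered pseudocount, filter, scaling, variance model, background floor, adjustment, covariates, sex, batch, pairing and each tumor left out. Plots were drawn with matplotlib 3.10.9.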

Additional observations from a re-analysis of the deposited data

Results flagged for a closer look

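Of 42 groups of 5 tumors examined for a value far from the others, 4 held such a tumor, or 9.52%. Chance gives about 5% where values are normally distributed and groups independent. The check used counts and ratios on a linear scale, and each of the 4 values was the highest of its group. The ratio is made from genes also checked singly, so no conclusion is drawn from the percentage. CD1A6 reached 534 normalized counts in early 4, while the remaining early tumors lay between 25.4 and 147. CD163 reached 1262 in early 2, with the rest of that stage between 133 and 424. The same gene reached 869 in late 2, with the rest of late CCH between 331 and 484. For late 3 the ratio of FLT3 to CD209 was 0.307, while the remaining late tumors lay between 0.050 and 0.122. Early 2 and late 2 were also the tumors of their stage with the most CD209 (4122 and 5421 normalized counts).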

How the results depend on the processing

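Of 761 genes, 85 were called (15 higher in early, 70 higher in late CCH), whereas the study's own nCounter test called none. The number was 188 with the BH adjustment and the 2-fold limit, 49 with age as a covariate and without early 3, whose age is not given (98 without early 3 alone), and 39 to 98 when a tumor was left out, with 47 without early 5 and 39, 48, 41 and 52 without late 1, 2, 4 and 5. It was 0 in limma with DV200 as a covariate, 0 with DV200 and without late 5, and 0 in male dogs alone, where 197, 149 and 278 genes had an unadjusted p under 0.05. Other scalings changed the split: 42 early to 34 late (geometric mean), 27 to 51 (TMM), 46 to 35 (quantile) and 30 to 41 (total count).

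FLT3 remained higher in early CCH throughout. It was no longer called with DV200 (log2FC 2.78), DV200 without late 5 (2.87, BY adjusted p = 0.505), age without early 3 (2.31, BY adjusted p = 0.0562) or in male dogs (2.11). Left-out tumors gave 2.35 to 2.79, with a BY adjusted p of 0.00263 to 0.0413 in limma. With extraction batch as a random block, nested in stage, it was 2.45 (BY adjusted p = 0.00481), but the estimated correlation within batches was negative (-0.138), which narrows the errors, so this fit adds no support. CD209 was called nowhere (-2.43 to -1.37). CDH1 turned sign without early 4 (-0.21) and late 1 (-0.014), within a range of -0.21 to 0.69 over left-out tumors. The FLT3 to CD209 log2 ratio differed by 3.83 to 5.21 over left-out tumors. The alternatives for CD207, CD1C and CD1E were chosen after seeing the data and gave no call. Without a fold limit, CD207 passed the BH threshold under geometric mean, TMM and total count scaling, and CD1C under quantile scaling.

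Replicate numbers did not pair the tumors, which came from different dogs. Deviations from the stage means correlated at -0.20, 0.16, 0.07, 0.06 and -0.07 for numbers 1 to 5. With the number as a replicate block, 1 gene was called and FLT3 had a log2FC of 2.49 (BY adjusted p = 0.0517, limma). The planned edgeR and DESeq2 tests of recovered counts were not run, because the control probes in the same columns are on another scale and the columns were therefore not accepted as whole reads. Depth limits CD207, CD1C and CD1E. The cause of these changes was not tested.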

Other observations

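Late 3 stood apart among the late tumors in several of the genes described. It had the highest FLT3 (708 normalized counts) and the lowest CD209 (2308) of late CCH, together with the highest late values of IRF8 (2523) and CCR7 (617). Its 9 B cell markers summed to 11351 normalized counts, against 2234 to 4507 in the other late tumors and 2378 to 3744 in the early tumors. The early sums rest largely on CD22 and TNFRSF13C (early means 1427 and 1171), which did not pass the BH threshold. MS4A1 and CD79B were above background in 1 and 0 of the 5 early tumors but in all 5 late tumors. The sums therefore do not show equal B cell content in the early and the other late tumors. Over both stages 1 of these 9 markers was called, CD79A, a chain of the B cell receptor (log2FC -2.61, limma, BY adjusted p = 0.0293), beside 9.2% of all genes as higher in late CCH, and 6 passed the BH threshold in that direction, beside 27.3% of all genes, with a median log2FC of -1.89 and the highest value in TNFRSF13C (0.58). Under the 4 other scalings 0 to 1 of the markers were called, with 0 under geometric mean and quantile scaling, and 4 to 5 passed the BH threshold. Late 3 was singled out after its values were seen.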
